A study of Mus musculus with 6 samples.

Results

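Glycolysis and the hypoxia response were followed in mouse embryonic stem cells through 40 genes, which encode glucose and lactate transporters, the enzymes of glycolysis, the regulators of its flux, and the sensor and targets of hypoxia-inducible factor (HIF). The genes were chosen by symbol from a list of names, with earlier results of these data known. They were matched to the deposited table by Ensembl identifier. All 40 had a row among the 22933 genes of the table. Of these, 36 had at least 10 sequenced reads on average and were tested, among 11843 genes tested in all. Aldoc, Eno2, Ankrd37 and Adm were below that minimum.

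Total RNA, depleted of ribosomal RNA, was sequenced from 1 line of embryonic stem cells with floxed Ezh2 (Ezh2 fl/fl). Ezh2 is the histone methyltransferase of the Polycomb repressive complex PRC2. The untreated group (n = 3 libraries) received no tamoxifen, and the labels call its genotype wild type. The tamoxifen group (n = 3) received 4-hydroxytamoxifen at 800 nM for 96 h to turn the floxed alleles into deleted ones, and its RNA was taken 4 days after treatment. The values of the tamoxifen group are labelled Ezh2dd, for the delta/delta genotype that the treatment protocol says tamoxifen generates. Both groups came from the floxed line and grew on gelatin in medium with serum and leukaemia inhibitory factor. The recombinase, its driver and the number of clones are not given in the sources used here, and no group received the drug without floxed alleles. Effects of the drug, of the deletion and of time in culture therefore cannot be told apart. No change of oxygen or glucose is named in the labels. It is also not stated whether the libraries came from separate cultures, so p-values measure the spread between libraries, which may be technical.

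Glycolysis turns glucose into pyruvate in the cytosol, and lactate dehydrogenase turns pyruvate into lactate, which leaves the cell. Pyruvate dehydrogenase kinases keep pyruvate out of the mitochondria by inhibiting its oxidation. When oxygen is low, prolyl hydroxylases no longer mark the HIF alpha subunits for destruction, and HIF binds short promoter and enhancer elements near many of these genes and raises their transcription. Naive mouse embryonic stem cells use both glycolysis and respiration, and primed pluripotent cells lean more on glycolysis.

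Ezh2 itself (ENSMUSG00000029687) was lower in the tamoxifen libraries but remained well detected. Its normalized values were 4165, 3620 and 3483 in untreated replicates 1 to 3 and 2258, 2559 and 2609 in tamoxifen replicates 1 to 3, which is 65.9% of the untreated mean. The groups did not overlap, but Ezh2 was not called (log2 fold change -0.60 ± 0.13 SE, limma adjusted p = 0.157). The table has 1 value for the whole gene, so exons outside the floxed segment are included. Recovered reads, explained in the next paragraph, totalled 2334438 to 5689666 per library, and tamoxifen replicate 2 was the shallowest. Of the marker lists, embryonic stem cell genes had all 10 detected, with summed levels of 1109 to 1830 RPM (recovered reads scaled to each library's total) in untreated and 1380 to 1900 in tamoxifen libraries. Primitive endoderm markers summed to 194 to 374 and 587 to 770 RPM, and their 7 tested genes had groups that did not overlap, all higher after tamoxifen (median log2 fold change 1.33, 0 called). Over all genes tested, 9.49% had groups apart in that direction. Trophoblast markers summed to 42.6 to 76.1 and 108 to 119 RPM. Fibroblast markers summed to 7.09 to 17.6 and 10.7 to 25.7 RPM, with Lum at 0 in every library. The part of these other cell types in the results on the 40 genes was not tested.

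Expression is given on 2 scales. The deposited values were brought to nearly the same distribution in every library before deposit, and they were tested as log2(value + 1) with limma. Each value also yields a whole number that was taken as the gene's read count (recovered reads), and reads scaled by a median ratio between libraries gave a second log2 fold change. A log2 fold change is the tamoxifen mean minus the untreated mean, from deposited values unless reads are named, and the added 1 understates the change of low genes. In RPM the median of all 11843 genes was itself shifted by 0.25, so that scale is read only against this shift. The fold change of Ezh2 was -0.40 on recovered reads, -0.19 on reads without untreated replicate 1, and -0.13 in RPM, where its groups overlapped.

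None of the 36 members tested was called in either direction, and as a group they were slightly lower after tamoxifen. Their median log2 fold change was -0.18, against -0.01 for all genes tested, and 25 of 36 (69.4%) were below 0, against 51.7% of all genes. On recovered reads the medians were -0.35 and -0.02, with the same 25 below 0, and in RPM -0.08 against 0.25. Tamoxifen replicate 2 carried much of this: without it the members' median was -0.07 on deposited values and -0.21 on reads, and without tamoxifen replicate 1 it was -0.33 on deposited values. In bulk RNA, fewer cells of a type and less RNA per cell cannot be told apart.

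At a limma adjusted p under 0.05, 0 members were lower (0.0169% of all genes tested) and 0 higher (0.11%), from 2 and 13 genes in the whole table. On deposited values, leaving out any 1 library left 0 or 1 gene called in the whole table. On recovered reads it left 301 without untreated replicate 1, 3 without untreated replicate 2 or 3, and 0 or 1 without a tamoxifen library. The smallest adjusted p of a member was 0.193, for Pdk1. On recovered reads 0 members were called too, and the whole table gave 0 lower and 5 higher genes. At an unadjusted p under 0.05, 7 members were lower (background 5.11%) and 1 was higher (background 6.85%). This lower count was 4 without untreated replicate 3 (4.34% of all genes) or without tamoxifen replicate 2 (3.88%). With untreated replicate 1 (7.68%) or tamoxifen replicate 1 (4.19%) left out it was 9. It was 9 on recovered reads (3.72%) and 1 in RPM (0.338%). On reads with 1 library left out it ran from 4 without untreated replicate 3 (2.58%) or tamoxifen replicate 2 (1.72%) to 14 without untreated replicate 1 (11.2%), with 10 without tamoxifen replicate 1 (2.62%). The 3 tamoxifen values lay below all 3 untreated values for 7 members (background 8.89%), namely Slc16a3, Gpi1, Tpi1, Pgk1, Pdk1, Bnip3 and Mxi1, and above them for P4ha2 alone (background 9.49%). On recovered reads the groups were apart for 9 lower members (background 7.77%) and 1 higher member (background 7.22%). Both scales shared 6 of the lower ones, all of the 7 but Tpi1, and Hk2, Pdk3 and Higd1a were apart on reads only. Precision was limited, since the median half-width of the members' 95% intervals was 0.55 on the log2 scale.

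**Figure D1:**
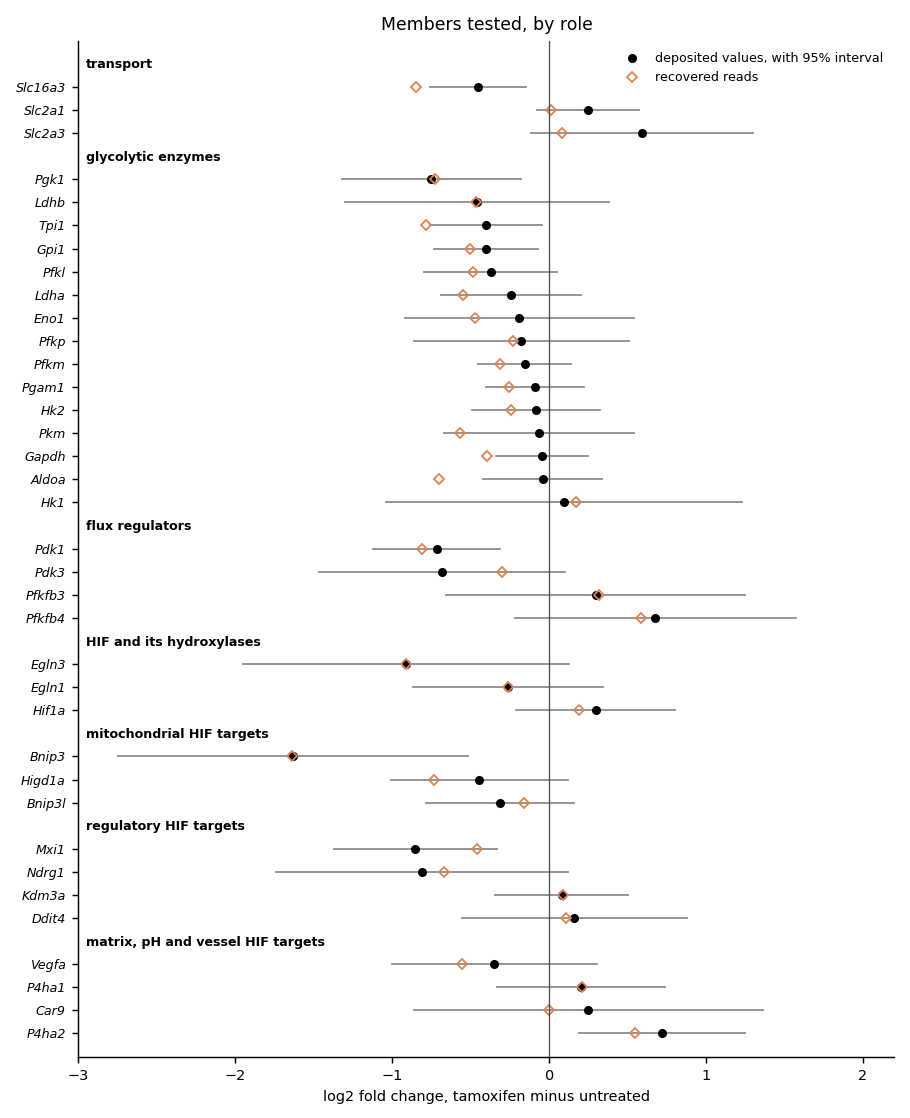
Log2 fold change, tamoxifen minus untreated, of the 36 members tested, grouped by role and sorted within each role. Filled points are deposited values with their 95% interval from limma, and open diamonds are recovered reads; 25 members lie below 0 on both scales, and the intervals of 7 lower members and of P4ha2 leave out 0.

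Of the 3 transporter genes, none was called. Both glucose importers overlapped between groups, and the values of the lactate exporter did not. Slc16a3 (ENSMUSG00000025161, MCT4, which exports lactate and is a known HIF target) lies at chr11:120948480-120960868 on the plus strand of GRCm38. Its deposited values were 3561, 3912 and 3695 in untreated and 2820, 2391 and 2958 in tamoxifen libraries. Every tamoxifen library was below every untreated one, and the mean went from 3723 ± 177 to 2723 ± 296 (SD, n = 3 each). The log2 fold change was -0.46 ± 0.13 (95% interval -0.76 to -0.15, limma adjusted p = 0.25), and -0.85 on reads. Its reads were few, from 67 to 385 per library.

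Slc2a1 (GLUT1, the widespread glucose importer) had values of 8437, 10413 and 9594 in untreated and 11249, 12076 and 10413 in tamoxifen libraries. The groups met at 10413, and the fold change was 0.25 ± 0.14 (interval -0.08 to 0.57, limma adjusted p = 0.528). Slc2a3 (GLUT3, a high-affinity importer) had 31822, 55878 and 55875 against 82366, 50310 and 82367. Tamoxifen replicates 1 and 3 were above all untreated libraries and replicate 2 was not, with a fold change of 0.59 ± 0.31 (limma adjusted p = 0.494). On recovered reads both stood near 0, at 0.01 for Slc2a1 and 0.08 for Slc2a3. Both lay below 0 on reads without tamoxifen replicate 1, and Slc2a1 also without untreated replicate 1. Per length, in RPKM (RPM per kilobase of exon), Slc2a3 had the higher level of the pair (median of 6 libraries 112, against 62.4 for Slc2a1 and 7.16 for Slc16a3).

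Of the 15 glycolytic enzyme genes tested, 14 had a fold change below 0 on both scales and none was called (median -0.18, and -0.47 on reads). Hk1, a hexokinase, was the exception. Over all genes tested, 51.7% were below 0 on deposited values and 52.0% on reads. In 3 of the 15 enzymes, Gpi1, Tpi1 and Pgk1, the tamoxifen values lay below all untreated ones on the deposited scale (background 8.89%). Deviations from each gene's mean show how the libraries shared in this: the enzymes' median was 0.06, 0.06 and 0.13 in untreated and 0.05, -0.36 and -0.10 in tamoxifen replicates 1 to 3. On deposited values tamoxifen replicate 1 was thus level with untreated replicates 1 and 2, and tamoxifen replicate 2 lay lowest. On recovered reads the enzymes' medians were -0.07, 0.40 and 0.39 in untreated and -0.02, -0.47 and -0.15 in tamoxifen libraries. There tamoxifen replicate 1 was near untreated replicate 1 only, and tamoxifen replicate 2 was again lowest.

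**Figure D2:**
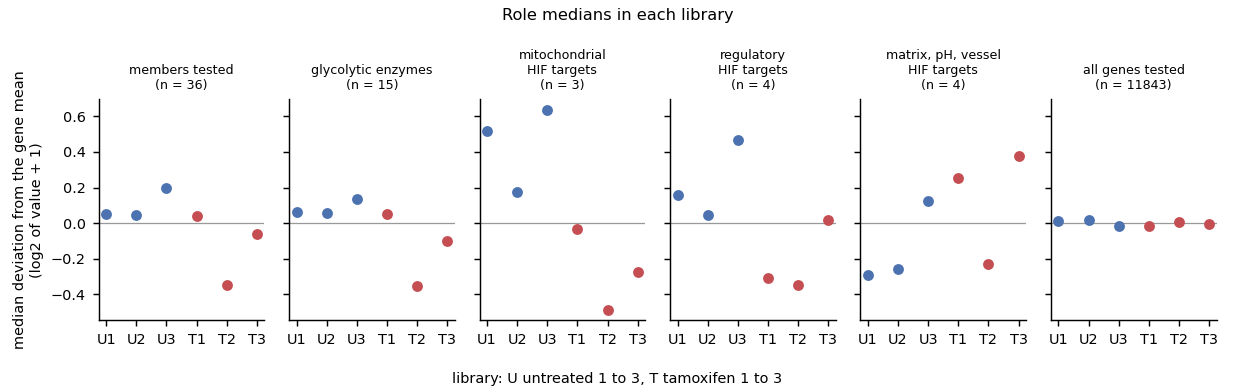
Median over genes of the log2(value + 1) deviation from each gene's mean in each library, for the members tested, 4 roles among them and all genes tested (U, untreated; T, tamoxifen). Tamoxifen replicate 2 was the lowest library for the median of the 36 members (-0.35), whereas the median of the 11843 genes stayed between -0.02 and 0.02.

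Pgk1 (ENSMUSG00000062070, chrX:106187100-106203699, plus strand), phosphoglycerate kinase of the first ATP-yielding step, had the largest fold change among the enzymes. Its values were 1226, 2024 and 2354 in untreated and 1129, 953 and 1139 in tamoxifen libraries. The tamoxifen libraries were tightly grouped below the untreated ones, of which replicate 1 was close to them. The mean went from 1868 ± 580 to 1074 ± 104 (57.5%), with a fold change of -0.75 ± 0.25 (interval -1.32 to -0.18, limma adjusted p = 0.296) and -0.73 on reads. Without untreated replicate 1, on recovered reads, Pgk1 was the only member called (-0.95, limma adjusted p = 0.0322), where 301 genes of the whole table were called. Pgk1 is also the member with the largest share of its sequence in common with other genes. Of the distinct stretches of 50 bases in its annotated transcripts, 53.9% recur in those of other genes. Pgk1-rs7 is the gene that shares the most of them.

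Gpi1 (ENSMUSG00000036427, chr7:34201330-34230336, minus strand), glucose-6-phosphate isomerase, had values of 8194, 7571 and 9419 in untreated and 6607, 5682 and 6764 in tamoxifen libraries. All tamoxifen libraries were below all untreated ones, on both scales. Mean Gpi1 went from 8395 ± 940 to 6351 ± 584, with a fold change of -0.40 ± 0.14 (interval -0.73 to -0.07, limma adjusted p = 0.334) and -0.50 on reads. Tpi1 (ENSMUSG00000023456, chr6:124810586-124814296, minus strand), triosephosphate isomerase, had 8563, 9712 and 9875 against 8436, 6255 and 6763. Here tamoxifen replicate 1 came within a small margin of the lowest untreated library, and on reads the groups overlapped. Its fold change was -0.40 ± 0.15 (interval -0.76 to -0.04, limma adjusted p = 0.364) and -0.78 on reads.

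Ldha and Ldhb encode the 2 common lactate dehydrogenase subunits, of which the A subunit favours lactate formation. Ldha values were 16718, 21331 and 17281 in untreated and 16718, 12280 and 18071 in tamoxifen libraries, and Ldhb values 1849, 1343 and 2393 and 2004, 769 and 1480. Both overlapped between groups, and for both tamoxifen replicate 2 was the lowest library. Fold changes were -0.24 ± 0.19 (limma adjusted p = 0.659) for Ldha and -0.46 ± 0.36 (limma adjusted p = 0.659) for Ldhb. Gapdh, often taken as a constant gene, had 4786, 4330 and 5037 against 4786, 4697 and 4203. These overlapped, with a fold change of -0.05 ± 0.13 (interval -0.34 to 0.25) on deposited values and -0.39 on reads, and its sign on deposited values turned when untreated replicate 3 or tamoxifen replicate 3 was left out.

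The remaining enzymes had no gap between groups on deposited values. Among the hexokinases, which trap glucose in the cell, Hk1 had a fold change of 0.10 and Hk2 of -0.08, and Hk2 was lower without overlap on reads only (-0.24). The phosphofructokinases Pfkl, Pfkm and Pfkp, which catalyse the committed step, stood at -0.37, -0.16 and -0.18. Lower glycolysis gave -0.04 for the aldolase Aldoa, -0.09 for the mutase Pgam1, -0.19 for the enolase Eno1 and -0.07 for the pyruvate kinase Pkm. Limma adjusted p of these 9 genes ranged from 0.47 for Pfkl to 0.956 for Hk1. Pkm was the most abundant member per kilobase (median 180 RPKM), before Aldoa at 129 and Slc2a3 at 112. Neighbours in this order overlapped between libraries, with Pkm at 165 to 298 and Aldoa at 108 to 222. Aldoc, the brain aldolase, had 1 read in each of untreated replicates 1 and 3 and tamoxifen replicate 3 and 0 elsewhere. Eno2, the neuronal enolase, had 2 to 10 reads in untreated and 4 to 14 in tamoxifen libraries.

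The scale moved some members more than others. Between deposited values and recovered reads, 7 members moved down by over 0.3 on the log2 scale, namely Slc2a3, Slc16a3, Aldoa, Tpi1, Gapdh, Pkm and Ldha, and Pdk3 and Mxi1 moved up by as much. Among all genes tested, 5.57% moved down and 7.14% moved up by over 0.3. Aldoa went from -0.04 to -0.71 and Pkm from -0.07 to -0.57. All 36 members kept their sign between these 2 scales: 25 were below 0 and 11 above 0 on both. In RPM, where the median of all genes was 0.25, 20 members were below 0.

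**Figure D3:**
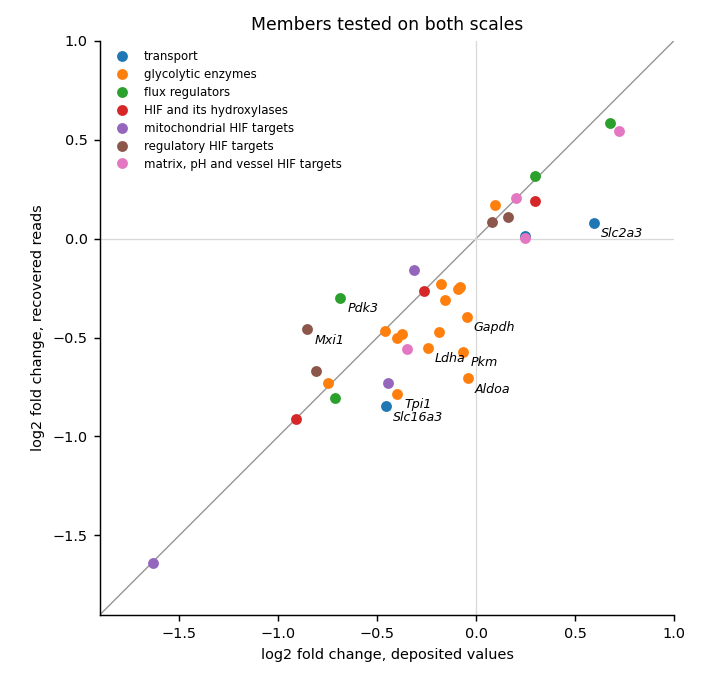
Log2 fold change of the 36 members tested on recovered reads (vertical axis) against deposited values (horizontal axis), coloured by role, with the line of equality. Named points moved by over 0.3 between the scales: 7 lie below the line, 5 of them glycolytic enzymes, and Pdk3 and Mxi1 lie above it.

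Genes that set the flux of glucose and pyruvate differed among themselves. Pdk1 (ENSMUSG00000006494, chr2:71873224-71903858, plus strand), a pyruvate dehydrogenase kinase and known HIF target, had values of 7095, 6365 and 5342 in untreated and 4146, 3114 and 4224 in tamoxifen libraries. The lowest untreated library lay well above the highest tamoxifen one. The mean went from 6267 ± 880 to 3828 ± 619 (61.1%), and the fold change was -0.71 ± 0.17 (interval -1.12 to -0.31, limma adjusted p = 0.193) and -0.81 on reads. Its transcripts shared no stretch of 50 bases with another gene. Pdk3, its X-linked relative, had 536, 1042 and 963 against 633, 331 and 614, so untreated replicate 1 lay among the tamoxifen libraries. The fold change was -0.69 ± 0.34 (limma adjusted p = 0.476) on deposited values and -0.30 on reads.

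Pfkfb3 and Pfkfb4 make and degrade fructose 2,6-bisphosphate, which activates phosphofructokinase, and both had fold changes above 0. Pfkfb3 values were 127, 127 and 330 in untreated and 175, 214 and 263 in tamoxifen libraries (fold change 0.30 ± 0.41, limma adjusted p = 0.816). Pfkfb4 values were 58.7, 127 and 77.5 against 107, 175 and 127 (0.67 ± 0.38, limma adjusted p = 0.536), on only 6 to 26 reads. Pfkfb4 was the 1 member higher without overlap on recovered reads, where its fold change was 0.58.

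Hif1a, the oxygen-regulated alpha subunit of HIF, was detected in all libraries, and its RNA overlapped between groups. Its values were 2696, 3854 and 3735 in untreated and 4535, 5002 and 3163 in tamoxifen libraries. Tamoxifen replicates 1 and 2 were above the untreated libraries and replicate 3 was within them (fold change 0.30 ± 0.22, limma adjusted p = 0.64). HIF1A protein, which oxygen regulates, was not measured. Egln1 (PHD2), the main prolyl hydroxylase, had 1168, 993 and 1138 against 1226, 603 and 1032. Only tamoxifen replicate 2 stood low, and the fold change of -0.26 ± 0.26 (limma adjusted p = 0.728) was 0.04 without that library. Egln3 (PHD3), itself a HIF target, had 292, 263 and 291 against 292, 77.7 and 147. Untreated libraries were nearly equal while the tamoxifen libraries spread widely, on 7 to 39 reads (fold change -0.91 ± 0.45, interval -1.95 to 0.13, limma adjusted p = 0.471).

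Promoter windows from RefSeq (GRCm38.p6, 250 bases before to 50 after an annotated start) were found for 37 members, with 55 windows in all. Slc2a3, Bnip3l and Ndrg1 had no window. The core of the hypoxia response element, ACGTG or GCGTG on either strand, was in 43 of the 55 windows (78.2%) and in at least 1 window of 34 members. It was also in 43.8% of all 32851 windows in the table and in 63.0% of the 11617 windows of genes tested here. By gene, 46.7% of all 27025 genes with a window held it in at least 1 window. The lactate dehydrogenase gene Ldha had up to 7 matches in 1 window. The motif CACGTG, the E-box read by MYC and MAX family factors, contains the core on both strands. It was in 5 member windows and in 7.15% of all windows. The 250 bases before the start are shown for the 3 genes with the largest fold change that hold the core among the mitochondrial, regulatory, and matrix, pH and vessel targets, which leaves out Egln3, grouped with the hydroxylases: Bnip3 at chr7:138909507-138909756 on the minus strand, Mxi1 at chr19:53329163-53329412 on the plus strand, and P4ha2 at chr11:54100674-54100923 on the plus strand. Capitals mark the core in either orientation, the start lies just after the last base, and the match is to letters only.
Bnip3: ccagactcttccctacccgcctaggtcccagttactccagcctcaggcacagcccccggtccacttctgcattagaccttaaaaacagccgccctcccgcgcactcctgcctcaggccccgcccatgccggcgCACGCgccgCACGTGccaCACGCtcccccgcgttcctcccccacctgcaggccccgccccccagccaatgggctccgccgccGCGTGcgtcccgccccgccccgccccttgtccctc
Mxi1: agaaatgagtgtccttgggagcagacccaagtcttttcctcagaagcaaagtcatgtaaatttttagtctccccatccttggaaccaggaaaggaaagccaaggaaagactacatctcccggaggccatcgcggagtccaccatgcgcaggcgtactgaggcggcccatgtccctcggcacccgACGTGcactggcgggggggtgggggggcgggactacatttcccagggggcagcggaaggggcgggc
P4ha2: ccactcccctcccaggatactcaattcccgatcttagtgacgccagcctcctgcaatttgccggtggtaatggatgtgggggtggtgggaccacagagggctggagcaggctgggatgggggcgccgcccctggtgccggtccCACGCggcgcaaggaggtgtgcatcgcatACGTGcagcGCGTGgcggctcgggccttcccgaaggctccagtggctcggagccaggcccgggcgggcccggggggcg
Bnip3 has 5 matches, of which a pair overlap in CACGTG, Mxi1 has 1 match 66 bases before the start in this window of its 3, and P4ha2 has 3 of its 4 matches in the bases shown. Bnip3, with lower values after tamoxifen, and P4ha2, with higher ones, both hold several cores.

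The 3 HIF targets that act at mitochondria all had fold changes below 0 (median -0.45, and -0.73 on reads). Bnip3 (ENSMUSG00000078566, chr7:138890836-138909519, minus strand), a receptor for mitophagy and among the most responsive HIF targets, had the largest fold change of all members. Its values were 497, 312 and 709 in untreated and 253, 77.3 and 185 in tamoxifen libraries, on 66, 47 and 32 and 24, 5 and 34 reads. Groups did not overlap on either scale, although each was spread widely. Mean Bnip3 went from 506 ± 199 to 172 ± 88.6 (34.0%), with a fold change of -1.63 ± 0.48 (interval -2.75 to -0.52, limma adjusted p = 0.254) and -1.64 on reads. Of its distinct stretches of 50 bases, 47.2% recur in other genes' annotated transcripts, and AC160336.1 is the gene that shares the most of them.

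Bnip3l (NIX), its paralogue, had values of 507 to 623 in tamoxifen and 583 to 876 in untreated libraries, which overlapped (-0.31 ± 0.20, limma adjusted p = 0.597). Higd1a, a small protein of the respiratory chain, had 467, 584 and 805 against 505, 368 and 467. The groups overlapped on deposited values (-0.45 ± 0.24, limma adjusted p = 0.517), and on reads they were apart (-0.73) with 12 to 52 reads per library.

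The HIF targets with regulatory roles were split, with Mxi1 and Ndrg1 below 0 and Ddit4 and Kdm3a near or above it (median -0.37, and -0.19 on reads). Mxi1 (ENSMUSG00000025025, chr19:53310518-53375810, plus strand), a MAX partner that opposes MYC, had values of 429, 312 and 477 in untreated and 205, 234 and 225 in tamoxifen libraries. The tamoxifen libraries were close together and below all untreated ones, on both scales. Mean Mxi1 went from 406 ± 84.7 to 221 ± 14.9 (54.5%), with a fold change of -0.85 ± 0.23 (interval -1.37 to -0.33, limma adjusted p = 0.21) on deposited values and -0.46 on reads. Ndrg1, a stress-responsive gene, had 156, 176 and 282 against 97.6, 78.0 and 185. Tamoxifen replicate 3 lay within the untreated range (-0.81 ± 0.40, limma adjusted p = 0.475).

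Ddit4 (REDD1), an inhibitor of mTORC1, overlapped between groups (0.16 ± 0.31, limma adjusted p = 0.876), as did Kdm3a, a histone demethylase induced by hypoxia (0.08 ± 0.18, limma adjusted p = 0.897). Ankrd37, a HIF target of little-known function, had values of 1141, 1182 and 1037 against 1020, 893 and 907 but was not tested. These values rested on 13, 18 and 3 reads in untreated and 8, 4 and 10 in tamoxifen libraries. All tamoxifen values were below the untreated ones, of which the lowest, 1037, rested on 3 reads, and 17.0% of its stretches of 50 bases recur in other genes, most in Lrp2bp.

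Targets for matrix, pH and vessels included the 1 member higher without overlap on deposited values (median of the 4 tested 0.23, and 0.10 on reads). P4ha2 (ENSMUSG00000018906, chr11:54100095-54131665, plus strand), a collagen prolyl 4-hydroxylase subunit, had values of 662, 613 and 680 in untreated and 1343, 759 and 1217 in tamoxifen libraries. Untreated libraries were nearly equal and all tamoxifen libraries lay above them, with replicate 2 closest. Mean P4ha2 went from 652 ± 34.5 to 1106 ± 307 (170%), with a fold change of 0.72 ± 0.23 (interval 0.19 to 1.25, limma adjusted p = 0.279). On recovered reads its groups overlapped (0.55). The basement membrane collagen gene Col4a1, in the primitive endoderm list, had a fold change of 1.27 (limma adjusted p = 0.0717) in the same libraries. Whether the same cells carry both was not tested.

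P4ha1, the other collagen hydroxylase subunit, had 721, 974 and 720 against 1139, 681 and 993, which overlapped (0.20 ± 0.23, limma adjusted p = 0.767). Car9, a carbonic anhydrase widely used as a HIF reporter, varied within groups more than between them. Its values were 5644, 7980 and 15315 in untreated and 5818, 10644 and 18684 in tamoxifen libraries (0.25 ± 0.48, limma adjusted p = 0.876, and 0.00 on reads). Vegfa, the vascular growth factor, had 2938, 2063 and 3443 against 2597, 1457 and 2656. Tamoxifen replicate 2 was the lowest and the other libraries overlapped (-0.35 ± 0.28, limma adjusted p = 0.666). Adm, the peptide adrenomedullin, had 0 to 4 reads in each library and was not tested.

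**Figure D4:**
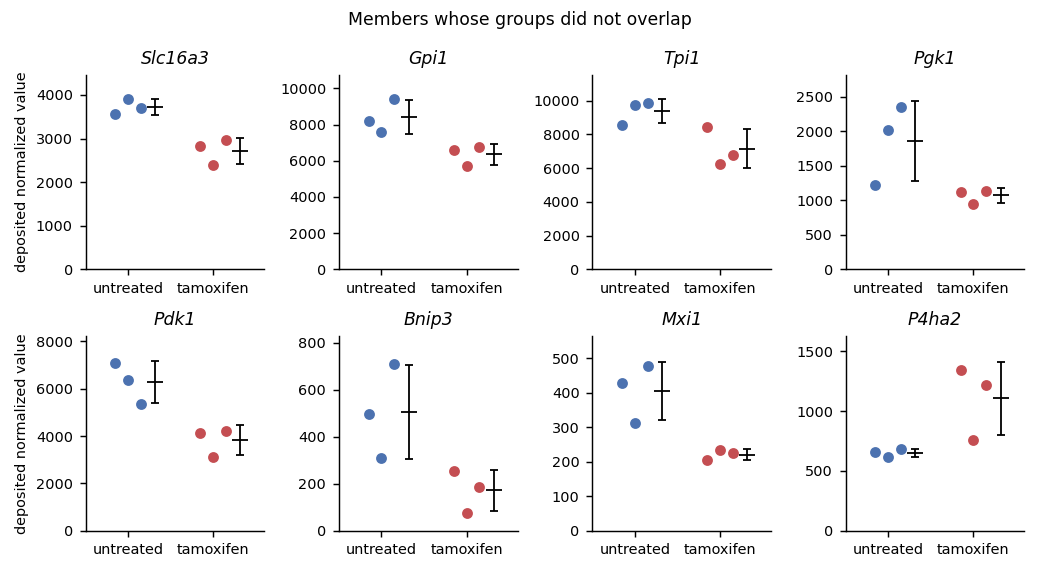
Deposited normalized value (vertical axis, from 0) of the 8 members tested whose groups did not overlap, in untreated (blue) and tamoxifen (red) libraries; points are libraries 1 to 3 from left to right, and bars give the mean ± SD. In 7 members all tamoxifen points lie below the untreated ones, and P4ha2, from 652 to 1106 on average, is the reverse.

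Ratios of paralogues within a library cancel any single factor per library, but not the gene-by-gene changes between recovered reads and deposited values. Of 10 pairs compared on recovered reads, 0 passed an adjusted p of 0.05, and with 3 against 3 libraries the smallest two-sided p of the exact permutation test is 0.1. The log2 ratio of Bnip3l to Bnip3 was 1.25, 1.44 and 0.24 in untreated and 1.75, 3.70 and 1.93 in tamoxifen libraries. All tamoxifen ratios were higher (difference 1.48, exact permutation p = 0.1, adjusted p = 0.5), and the difference was 1.32 on deposited values. Pdk3 to Pdk1 gave -2.69, -2.46 and -2.13 against -1.91, -2.05 and -1.79. On reads these groups did not overlap either (difference 0.51, exact permutation p = 0.1, adjusted p = 0.5). On deposited values the Pdk3 to Pdk1 difference was 0.03 (exact permutation p = 1), so it was seen on recovered reads only.

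The other 8 pairs overlapped between groups. Egln3 to Egln1 differed by -0.65 (exact permutation p = 0.3), Eno2 to Eno1 by 0.70 (p = 0.2, on as few as 2 reads) and Hk2 to Hk1 by -0.42 (p = 0.5). The ratios Slc2a3 to Slc2a1, Pfkp to Pfkl, Pfkfb4 to Pfkfb3, Ldhb to Ldha and Aldoc to Aldoa differed by 0.07, 0.26, 0.27, 0.09 and 0.02, with exact permutation p between 0.7 and 1, and adjusted p of the 8 pairs ran from 0.667 to 1. Per kilobase of exon, Hk2 was above Hk1 by 3.07 on the log2 scale and Ldhb was below Ldha by a log2 ratio of -1.66, averaged over the 6 libraries.

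**Figure D5:**
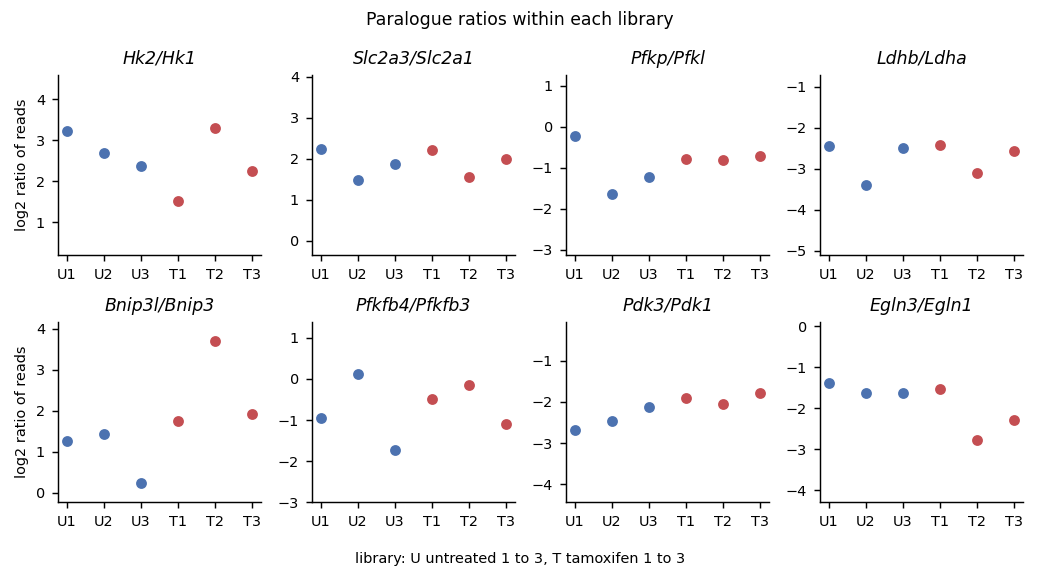
Log2 ratio of recovered reads between paralogous members in each library (U, untreated; T, tamoxifen), for 8 of the 10 pairs, with vertical axes of equal span. Bnip3l/Bnip3 and Pdk3/Pdk1 are the pairs in which all 3 tamoxifen ratios lie above the untreated ones, by 1.48 and 0.51 on average on this scale.

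Neighbouring pathways held no called gene either, by limma on the deposited values. Of 12 other HIF pathway factors, 12 were tested and 8 were below 0 (median -0.13, and -0.07 on reads). Arnt2, a partner of the HIF alpha subunits, had the smallest p (-0.96, limma adjusted p = 0.201, and -0.33 on reads), followed by the inhibitory subunit gene Hif3a (-0.81, limma adjusted p = 0.457, and -0.63 on reads). Of 34 other hypoxia targets, 28 were tested, 19 were below 0 and the median was -0.16 (-0.25 on reads). In 10 of them the groups did not overlap with tamoxifen lower and in 4 with tamoxifen higher (8.89% and 9.49% of all genes tested). The histone demethylases Kdm4b (-0.75, limma adjusted p = 0.131, and -0.56 on reads) and Kdm4c (-0.70, limma adjusted p = 0.155, and -0.39 on reads) led this list.

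Other sugar pathway genes, 19 of 27 tested, had a median of -0.09 (-0.13 on reads) with 11 below 0. Their smallest p values were those of the muscle enolase gene Eno3 (-0.41, limma adjusted p = 0.271, and -0.64 on reads) and of Tkt, transketolase of the pentose phosphate pathway (-1.01, limma adjusted p = 0.306, and -0.56 on reads). Pyruvate entry and the TCA cycle, with 26 of 26 genes tested, were centred near 0 (median -0.04, and -0.06 on reads). There Mdh2, mitochondrial malate dehydrogenase, was at 0.51 (limma adjusted p = 0.341, and 0.12 on reads) and Mpc1, part of the mitochondrial pyruvate carrier, at 0.44 (limma adjusted p = 0.535, and 0.48 on reads). Nuclear genes of the respiratory chain, 26 of 28 tested, had 20 below 0 on deposited values, with small sizes from -0.31 to 0.25 (median -0.07). On recovered reads 24 of the 26 were below 0, with a median of -0.25. Ndufb8 of complex I stood at -0.25 (limma adjusted p = 0.531, and -0.47 on reads) and Atp5c1 of ATP synthase at -0.18 (limma adjusted p = 0.593, and -0.34 on reads). No row of the deposited table was matched to the 13 protein genes of the mitochondrial genome, so they were not analysed here.

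Several members share sequence with other genes, and how the authors counted such reads is not given in the sources used here, so these values are uncertain. Beside Pgk1 and Bnip3, the share of distinct stretches of 50 bases that recur elsewhere was 36.2% for Pgam1, 26.0% for Eno1, 25.8% for Pkm, 25.1% for Gapdh, 24.4% for Higd1a, 20.8% for Bnip3l and 15.8% for Gpi1, and that of Ldhb lay between those of Higd1a and Bnip3l. Most of the shared Eno1 stretches, 25.3% of all its stretches, recur in Eno1b, which had 470 to 1675 recovered reads of its own. Pfkp overlaps Pitrm1 on the opposite strand by 748 exonic bases, and the strand setting of the count is not given. Slc16a3, Hk2, Pdk1, Pdk3, Egln1, Egln3, Ddit4, Kdm3a and P4ha1 shared no such stretch.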

How the data were processed

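The deposited table holds 1 normalized signal per gene and library, which the authors made from total RNA reads. TopHat2, bedtools, DESeq2 and the build mm9 are named, without versions or roles, per the submitters' processing notes. The annotation, strand setting and counting rule are not given in the sources used here. Per the labels, libraries were directional. Each of the 100305 values above 0 in the deposited table equals 9.73 × k × (m + 0.1) / (k + 0.1) with whole numbers k and m, to a relative misfit of at most 5.39e-15. The sorted m differ by at most 4 between libraries, and k was taken as the read count (recovered reads). A single solution existed for 98.8% of values, the gene's other libraries settled 1059 and the ratio nearest 1 settled 106.

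Columns were matched to libraries by genotype and replicate number. Symbols and coordinates came from GENCODE vM21 (GRCm38) by Ensembl identifier for 20273 genes, and promoters from RefSeq (GRCm38.p6). Genes with at least 10 reads on average entered limma 3.58.1 (R 4.3.3) as log2(value + 1) (expression trend, Benjamini-Hochberg over all genes tested, called under 0.05). Solver and test were tested on simulated data. Paralogue ratios used reads + 0.5 and exact permutation tests, two-sided, in Python 3.11.15 with scipy 1.17.1. Values are named for members whose groups did not overlap, the 2 of largest fold change per role, and Hif1a, Egln1, Slc2a1, Gapdh, Ldha and Vegfa, and the rest are given more briefly. From each neighbouring pathway the called genes were to be named, or else the 2 of smallest p.

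The members, lists and tests were chosen with earlier results of these data known. Alternatives covered the filter, pseudocount, scaling, replicate block, variance trend and leaving out libraries. Leaving out libraries on recovered reads, the search for shared stretches of 50 bases and the promoter share among genes tested were chosen after seeing the data.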

Additional observations from a re-analysis of the deposited data

How the results depend on the processing

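Of the 20 members named and tested, 16 kept the sign of their fold change under all 20 alternatives, 14 of them planned. The exceptions were Egln1, Gapdh, Slc2a1 and Slc2a3. Many of the 20 were named for groups apart or a large fold change in these same data, which favours a stable sign. Among members not named, Hk2, Pfkp, Pgam1 and Bnip3l turned from below to above 0 in RPM (0.027, 0.042, 0.014 and 0.113). Changing the filter, blocking by replicate or dropping the expression trend cannot alter a fold change, so those settings do not test its sign. Egln1 stood at 0.00856 in RPM. Leaving out 1 library on deposited values gave -0.475 to 0.0364 for Egln1 and -0.108 to 0.00992 for Gapdh. On recovered reads it gave 0.0366 for Egln1 without tamoxifen replicate 2, -0.222 and -0.0183 for Slc2a1 without untreated replicate 1 and without tamoxifen replicate 1, and -0.0984 for Slc2a3 without tamoxifen replicate 1. The cause was not tested. The members' median was -0.353 on recovered reads scaled by median ratio, and -0.327 to -0.0690 when 1 library was left out on deposited values. On reads it ran from -0.436 without untreated replicate 1 to -0.207 without tamoxifen replicate 2, with -0.430 and -0.393 without tamoxifen replicates 1 and 3. Members called lower numbered 0 to 1 with 1 library left out, the 1 being Pgk1 on recovered reads without untreated replicate 1, and members called higher were 0 in every setting run.

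Over all genes, limma called 15, and 34 with a mean value of at least 10 as filter, 52 with no filter, 5 with a pseudocount of 10, 13 in RPM, 5 on reads by median ratio, 15 after quantile normalization and 3 without the expression trend. The 2 lower and 13 higher genes became 12 and 22 with the value filter, 17 and 35 with no filter, and 0 and 5 on reads by median ratio. Replicate numbers are shared between groups. Over all 11843 genes tested, the deviations of same-numbered libraries correlated by -0.00721, -0.0495 and 0.00478. No pairing was thus seen across the table as a whole, which cannot exclude it for single genes. With the replicate block 0 genes were called, and 9 members in place of 8 had an unadjusted p under 0.05. The members' median of -0.184 cannot change under this block, since each replicate number occurs once per group.

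Of the paralogue ratios, 6 turned sign under some setting. On deposited values Aldoc/Aldoa gave -0.263 and Ldhb/Ldha -0.216, and Pdk3/Pdk1 went to 0.0287 from 0.508 on reads. Leaving out 1 library gave -0.885 to 0.00322 for Hk2/Hk1, -0.125 to 0.255 for Slc2a3/Slc2a1, -0.0516 to 0.658 for Pfkp/Pfkl, -1.03 to 0.725 for Aldoc/Aldoa, -0.224 to 0.290 for Ldhb/Ldha and -0.166 to 0.761 for Pfkfb4/Pfkfb3. On reads with 1 library left out, Bnip3l/Bnip3 gave 0.863 to 1.84 and Pdk3/Pdk1 0.376 to 0.656. Ezh2 gave -0.652 to -0.523 with 1 library left out on deposited values. Tested members had 15.8 to 4074 reads on average.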
